A study of Mus musculus with 2 samples.

Results

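The early secretory pathway genes described here are 48 mouse genes of the COPI and COPII vesicle coats, their small GTPases and regulators, and the cargo receptors that travel in these vesicles. They were chosen by gene name, from a list of names, among all non-control probes of the array. Of the 48 genes, 47 were well above background on both arrays, out of 24111 genes measured on both arrays in all. COPII is the coat that buds vesicles from the endoplasmic reticulum (ER) towards the Golgi, and COPI is the coat that carries escaped ER proteins and cargo receptors back. Sar1 GTPases start the assembly of COPII, and Arf GTPases that of COPI. KDEL receptors, p24 proteins and lectins bind cargo inside the lumen and link it to the coats. KDEL receptors bind their ligands better at the lower pH of the Golgi lumen, where GPHR, the Golgi pH regulator encoded by Gpr89 in the mouse, is an anion channel.

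Total brain RNA was compared between 1 mouse sample of genotype GPHR F/F;Nes and 1 of genotype GPHR F/F, both of the strain C57BL/6J at postnatal day 10. F/F is the usual notation for a pair of floxed alleles, which both samples carry by their labels. The labels do not spell out Nes, which is also the symbol of the nestin gene, and the deleter line, the deleted exons and any pooling of animals are not given in the sources used here. Each sample was hybridised to 1 Agilent array of 1 colour, so there was no replicate, no test was possible and no p-value is given.

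Levels are log2 processed signals minus the 75th percentile of the same array, which was 173 units in GPHR F/F;Nes and 259.5 units in GPHR F/F. A difference is the level in GPHR F/F;Nes less that in GPHR F/F, in log2 units. The ± value beside it comes from the scanner software and covers technical error alone, not the spread between animals. The targeted gene Gpr89, measured by 1 dim probe, had a level of -3.11 in GPHR F/F;Nes and -2.58 in GPHR F/F, a difference of -0.53 ± 0.22. Whether that probe lies in the deleted part of the gene is not given. Of the 2 arrays, only that of GPHR F/F;Nes had Xist signal (55.8-fold higher or more), and only that of GPHR F/F had signal of the Y-linked Eif2s3y (38.4-fold lower or more in GPHR F/F;Nes). Ddx3y and Uty, also Y-linked, had signal on the GPHR F/F array only, but the probe for Y-linked Kdm5d was measured on both arrays, with levels of -0.35 in GPHR F/F;Nes and -0.74 in GPHR F/F (0.39 ± 0.20). The labels do not give the sex, and sex and genotype cannot be told apart here. All 10 neuronal markers were measured on both arrays, which does not show what other tissue each sample held. Markers of other cell types are given below.

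Kdelr3 and Copz2 stood apart from the other coat and cargo receptor genes, and each of the others differed by less than 2-fold between the arrays. Kdelr3, which encodes a receptor that returns proteins to the ER, was 6.14-fold higher in GPHR F/F;Nes, or 2.69-fold after normexp background correction and 3.17-fold after spike-in scaling. Copz2, which encodes a ζ subunit of the COPI coat, was 2.59-fold higher, or 1.83-fold after normexp and 1.34-fold after spike-in scaling, both under 2-fold. No gene of the group was 2-fold lower. Among all genes measured, 7.93% passed 2-fold upwards and 1.37% downwards, so a count of 2 higher genes among 47 is near the background. Of the 47 genes, 35 lay above 0 and 12 below, against 56.9% of all genes above 0. Their median was 0.16, against 0.07 for all genes. As 42 of the 47 genes lay at or above the median level of all genes, the brighter genes are the closer background. There the median difference was -0.05, 44.1% lay above 0, 3.53% were 2-fold higher and 1.25% were 2-fold lower. In bulk RNA, fewer cells of a type and less RNA per cell cannot be told apart.

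**Figure D1:**
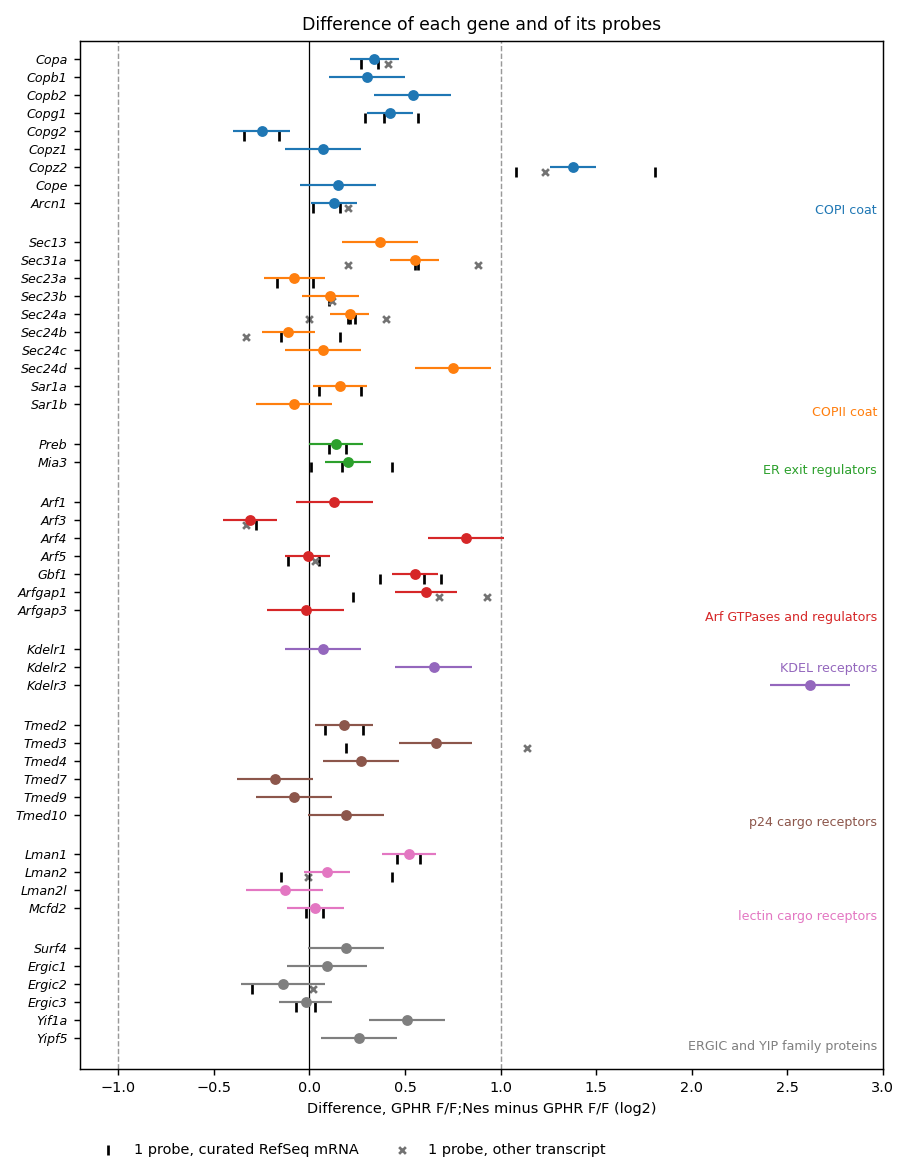
Difference in log2 units (x axis) for each gene (rows, grouped by class), GPHR F/F;Nes less GPHR F/F, 1 array each. Circles are gene means over probes with the scanner error as a bar, small marks below them are the single probes of genes with several, and dashed lines mark a 2-fold difference. Kdelr3 (2.62) and Copz2 (1.38) lie past the dashed line, and Arf3 (-0.31) is the lowest.

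The direction of the group as a whole depended on the scaling of the arrays. With each array centred on its median, the group had a median of -0.12 and all genes one of -0.20. After scaling to spike-in RNAs these were -0.79 and -0.88. In that scaling every measured gene of the group but Kdelr3 (1.67) and Copz2 (0.42) lay below 0. The median of the group less that of all genes was 0.09, which these scalings cannot move because they shift every gene of an array alike. It was 0.22 after quantile normalization, 0.19 after loess and -0.08 with no filter on dim probes, where its sign turned. The split of 2-fold genes moved as well, with 85.3% of them higher in GPHR F/F;Nes as reported, 74.5% with a stricter filter on dim probes, 72.3% after loess, 68.2% after quantile normalization, 56.9% with centring on the median and 1.97% after spike-in scaling. Differences between members of 1 gene family do not depend on any constant of an array, and they are given below for that reason.

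**Figure D2:**
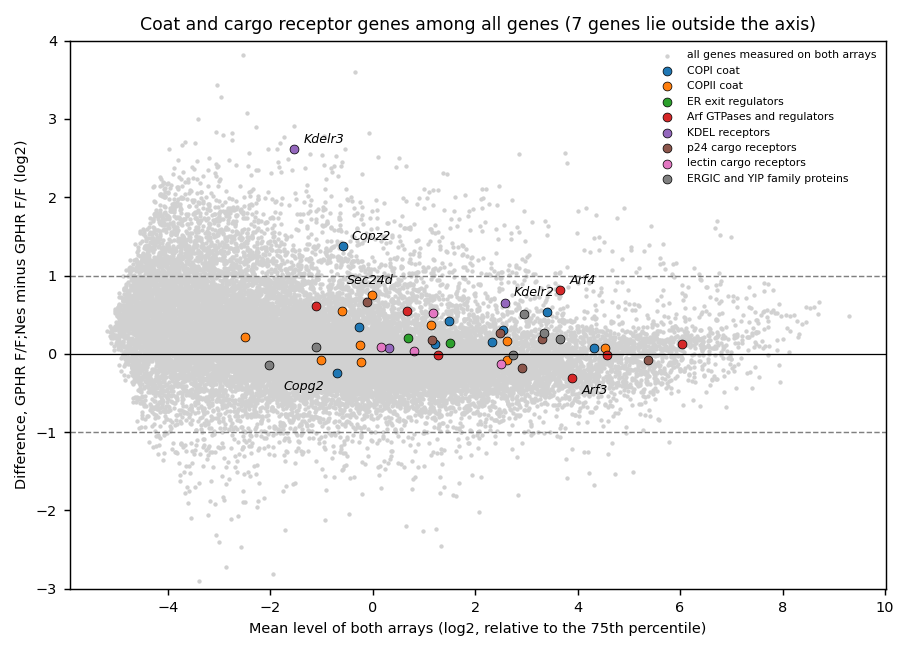
Difference (y axis, log2, GPHR F/F;Nes less GPHR F/F) against the mean level of both arrays (x axis, log2 relative to the 75th percentile), with coat and cargo receptor genes coloured by class over all genes in grey. Dim genes on the left spread more widely and upwards, and 42 of the 47 coloured points lie at or above the median level. Kdelr3 lies on the dim side at a difference of 2.62.

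The KDEL receptors retrieve soluble ER proteins that carry a KDEL-like tail, and the 3 genes differed by unequal amounts. Kdelr3 had a signal of 148 units in GPHR F/F;Nes, against 36.2 units in GPHR F/F, and its levels were -0.23 and -2.84 in the same order. Its difference was 2.62 ± 0.21, and it rested on 1 probe on chromosome 15 (mm9, 79357588 to 79357647, plus strand). Kdelr2 had 1295 units in GPHR F/F;Nes, against 1232 units in GPHR F/F, on arrays of unequal brightness. Its levels were 2.90 and 2.25, a difference of 0.65 ± 0.20. Kdelr1 had levels of 0.36 in GPHR F/F;Nes and 0.29 in GPHR F/F, a difference of 0.07 ± 0.20 that lay within its scanner error. Kdelr3 thus exceeded Kdelr1 by 2.55 ± 0.29 in its difference and Kdelr2 by 1.96 ± 0.29. Both contrasts were smallest after normexp background correction, at 1.42 and 0.74.

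**Figure D3:**
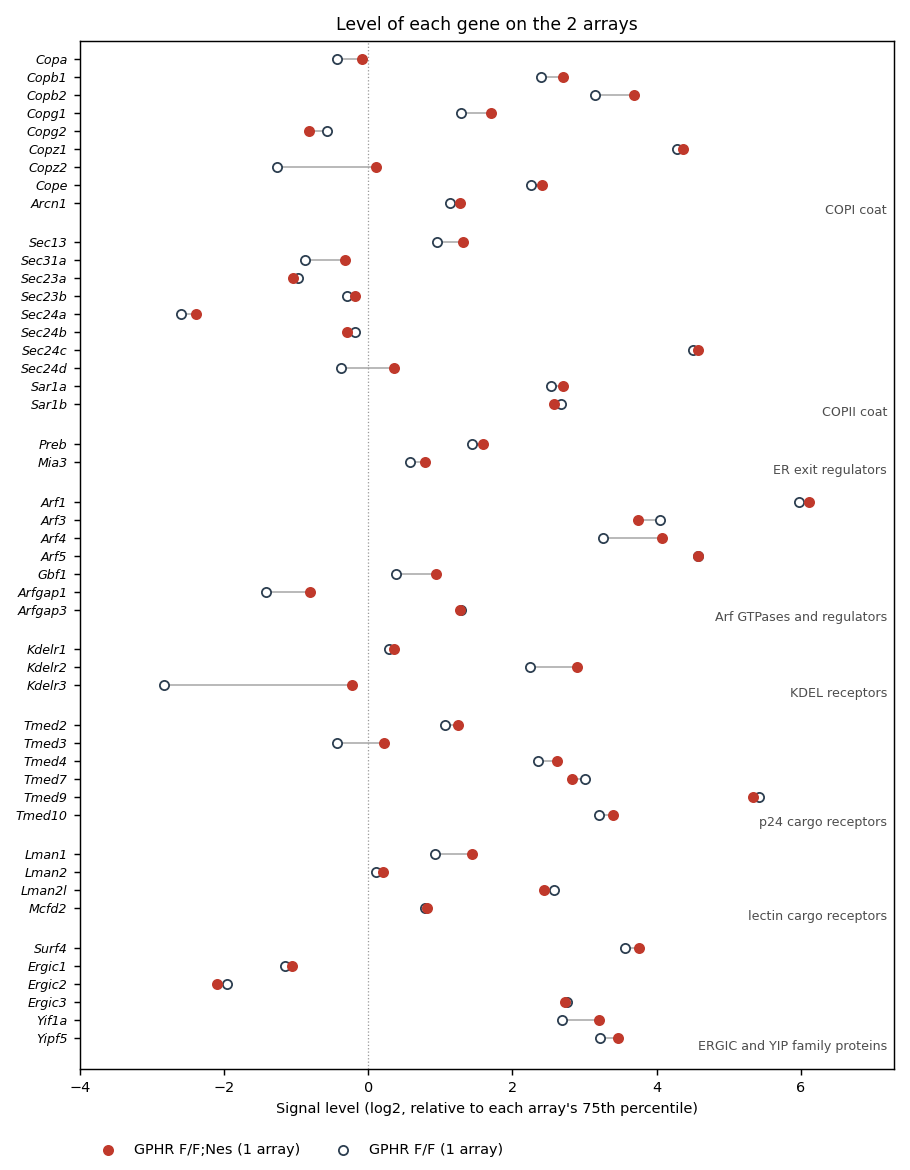
Level of each measured gene (x axis, log2 relative to the 75th percentile of its array) in GPHR F/F;Nes (filled) and GPHR F/F (open), joined by a line, with 1 array each. Levels of different genes come from different probes and cannot be set against each other. The longest line is that of Kdelr3, with -0.23 in GPHR F/F;Nes and -2.84 in GPHR F/F.

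Promoters of the coat and cargo receptor genes were searched for 5 motifs of the ER and Golgi stress responses and the E-box. Sequences are those of RefSeq (GRCm38.p6), 250 bases before to 50 after each annotated gene start, and 42 of the 48 genes had an entry. The site TGACGTGG, which ER stress factors of the ATF6, XBP1 and CREB3 families are known to bind, was found on either strand in 7 of the 42 genes (16.7%), against 0.714% of all 27025 genes and 0.823% of 17491 protein-coding genes. The letters ACGTGGC, known as the core of a Golgi stress element bound by TFE3, were found in 14 of the 42 (33.3%), against 2.95% of all genes and 3.39% of protein-coding genes. Both motifs contain ACGTGG, and 4 genes held both. The E-box CACGTG was found in 9.52% of the 42 genes and 8.09% of all genes, and the ER stress elements ERSE (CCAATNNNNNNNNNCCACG) and ERSE-II in none of the 42 (0.137% and 0.0444% of all genes). The promoters of the group were richer in GC, with a median of 62.7% against 56.3% over protein-coding promoters, and the part of base composition in these shares was not tested. The 7 genes with TGACGTGG are shown because the site is shared across the coats, a GTPase, its regulator and a KDEL receptor, read on the strand that spells the site, with the site in capitals and 10 bases on each side.
Kdelr3: ggccgcgcggTGACGTGGcggggcggcc
Sec24d: cccgggcgccTGACGTGGcactagcaac
Gbf1: gtcagctcacTGACGTGGtaactagcct
Copb2: gccaacccacTGACGTGGaacttccggg
Copb1: agtccttggcTGACGTGGaagggggcgg
Arf1: cggcaggcgcTGACGTGGctgccgtcag
Sec23a: tcctccccttTGACGTGGcagaggcggc
These windows lie at chr15:79516368-79516395, chr3:123267460-123267487, chr19:46152536-46152563, chr9:98563714-98563741, chr7:114254691-114254718, chr11:59228229-59228256 and chr12:59011994-59012021, in the order of the lines.

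Genes with the site differed among themselves. The 7 genes with TGACGTGG had a median difference of 0.54 and spanned -0.08 (Sec23a) to 2.62 (Kdelr3), whereas the 34 measured genes with a promoter entry and without the site had a median of 0.12. Over all 122 measured protein-coding genes with the site, the median was -0.01 and 5.74% were at least 2-fold higher, against 0.02 and 6.05% of the 12257 without it. For ACGTGGC, the 14 coat and cargo receptor genes with the letters had a median of 0.27 and the 27 without them 0.14, and over 517 protein-coding genes with them the median was 0.04. These are descriptions of letters in a window and of 2 arrays, with no test. Whole promoters follow for the gene with the largest difference, its paralogue near 0, and the leading coat genes, with both motifs in capitals on either strand.
Kdelr3: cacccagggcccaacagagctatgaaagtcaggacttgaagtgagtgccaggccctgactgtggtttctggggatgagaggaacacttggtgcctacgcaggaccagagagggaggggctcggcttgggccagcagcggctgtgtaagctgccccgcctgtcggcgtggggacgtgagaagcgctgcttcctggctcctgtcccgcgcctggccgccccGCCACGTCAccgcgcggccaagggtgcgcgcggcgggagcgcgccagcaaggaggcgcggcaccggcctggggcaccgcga
Kdelr1: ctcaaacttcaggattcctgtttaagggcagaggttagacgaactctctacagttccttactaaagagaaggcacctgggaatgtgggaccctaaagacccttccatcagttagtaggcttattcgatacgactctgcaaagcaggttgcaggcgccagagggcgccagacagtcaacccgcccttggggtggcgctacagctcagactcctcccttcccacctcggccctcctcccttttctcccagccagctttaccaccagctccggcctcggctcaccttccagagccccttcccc
Copz2: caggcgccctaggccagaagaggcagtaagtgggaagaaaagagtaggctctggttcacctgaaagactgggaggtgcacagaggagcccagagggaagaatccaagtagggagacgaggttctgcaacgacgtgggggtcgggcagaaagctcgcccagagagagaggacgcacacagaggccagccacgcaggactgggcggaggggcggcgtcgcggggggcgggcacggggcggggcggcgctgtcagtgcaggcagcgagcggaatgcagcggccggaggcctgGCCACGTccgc
Sec24d: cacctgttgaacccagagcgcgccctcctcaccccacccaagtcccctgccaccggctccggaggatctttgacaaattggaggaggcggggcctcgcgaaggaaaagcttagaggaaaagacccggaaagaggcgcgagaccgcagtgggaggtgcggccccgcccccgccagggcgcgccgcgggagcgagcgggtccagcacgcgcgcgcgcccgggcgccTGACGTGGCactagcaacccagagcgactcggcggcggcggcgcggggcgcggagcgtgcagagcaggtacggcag
They lie at chr15:79516158-79516457, chr7:45872590-45872889, chr11:96849626-96849925 and chr3:123267246-123267545, all on the plus strand. The Kdelr3 promoter holds both motifs as 1 overlapping run on the minus strand, and the Sec24d promoter holds them as 1 run on the plus strand. Copz2 holds the shorter motif alone, near the end of the window, and Kdelr1 holds neither. These promoters were picked by the differences of their genes, so they cannot show whether the motifs go with a difference. Sec23a (-0.08) and Arf1 (0.13) also hold both motifs. Kdelr2 (0.65) and Arf4 (0.82) were not among the genes found with either, and 6 of the 48 genes had no entry.

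The COPI coat is a complex of several subunits, of which γ and ζ each have a pair of genes. Of its 9 genes, 8 lay above 0 and 1 below, with a median of 0.30. Over all genes measured 56.9% lay above 0, and over the brighter genes 44.1%. With each array centred on its median, the median of the COPI genes was 0.03. Copz2 had levels of 0.10 in GPHR F/F;Nes and -1.27 in GPHR F/F, a difference of 1.38 ± 0.12, and its 3 probes gave 1.08, 1.23 and 1.81. Signals of these probes were 346, 242 and 76.9 units in GPHR F/F;Nes, against 245, 154 and 32.7 units in GPHR F/F. All 3 probes thus passed 2-fold, and the dimmest gave the largest value. Its difference was 0.87 after normexp correction and 0.42 after spike-in scaling. Copz1, the other ζ gene, had levels of 4.36 and 4.29 in the same order, a difference of 0.07 ± 0.20, which Copz2 exceeded by 1.30 ± 0.24.

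The γ subunit genes lay on opposite sides of 0. Copg1 had levels of 1.70 in GPHR F/F;Nes and 1.28 in GPHR F/F, a difference of 0.42 ± 0.12, with its 3 probes between 0.29 and 0.57. Copg2 had levels of -0.82 in GPHR F/F;Nes and -0.57 in GPHR F/F, a difference of -0.25 ± 0.15, with its 2 probes at -0.34 and -0.16. All Copg1 probes lay above all Copg2 probes, and the contrast of 0.67 ± 0.19 stayed between 0.55 and 0.83 in the 12 alternative settings. Of the other subunits, β′ (Copb2) had a difference of 0.54 ± 0.20, α (Copa) 0.34 ± 0.13 and β (Copb1) 0.30 ± 0.20. The genes of ε (Cope, 0.15 ± 0.20) and δ (Arcn1, 0.13 ± 0.12) lay close to their scanner error. Arcn1 and Copb2 each had a further dim probe that passed the background limit on the GPHR F/F;Nes array only, with bounds of at least 2.24-fold and 2.44-fold higher, while their brighter probes differed less.

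The Arf GTPases and their regulators set where COPI assembles, and Arf4 had the largest difference among them. Its signal was 2919 units in GPHR F/F;Nes and 2475 units in GPHR F/F, and its levels were 4.07 and 3.25, a difference of 0.82 ± 0.20 from 1 probe. Arf3 had levels of 3.74 in GPHR F/F;Nes and 4.05 in GPHR F/F, a difference of -0.31 ± 0.14, with probes at -0.33 and -0.28. It had the lowest difference of the 47 genes. Arf1, which recruits COPI to the Golgi, differed by 0.13 ± 0.20, and Arf5, the closest relative of Arf4, by -0.01 ± 0.12. Arf4 exceeded Arf5 by 0.83 ± 0.24 and Arf3 by 1.13 ± 0.25, and over the 12 alternatives the first of these lay between 0.79 and 0.87.

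The exchange factor Gbf1, which activates Arf proteins at the early Golgi, had levels of 0.94 in GPHR F/F;Nes and 0.39 in GPHR F/F, a difference of 0.55 ± 0.12. Its 3 measured probes lay between 0.37 and 0.69. Arfgap1, which ends Arf signalling by stimulating GTP hydrolysis, had a difference of 0.61 ± 0.16, but its probes disagreed. The brightest probe, designed to a curated mRNA, gave 0.23, and the other 2 gave 0.68 and 0.93, so the value of the gene rests on which probe is read. Arfgap3 differed by -0.02 ± 0.20.

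COPII genes differed little apart from Sec24d and Sec31a. Of 10 measured genes, 7 lay above 0 and 3 below, with a median of 0.13, against 56.9% of all genes above 0 and 44.1% of the brighter genes. With each array centred on its median, the median of the COPII genes was -0.14. Sec24 proteins of the inner coat choose the cargo, and among their 4 genes Sec24d had the largest difference. Its signal was 223 units in GPHR F/F;Nes and 199 units in GPHR F/F, its levels 0.36 and -0.38, and its difference 0.75 ± 0.20 from 1 probe. Sec24a differed by 0.21 ± 0.10, and Sec24c by 0.07 ± 0.20. Sec24b had levels of -0.29 in GPHR F/F;Nes and -0.19 in GPHR F/F, a difference of -0.11 ± 0.14. Sec24d exceeded Sec24c by 0.68 ± 0.29, Sec24a by 0.54 ± 0.23 and Sec24b by 0.85 ± 0.25, each more than 2 times the scanner error of the contrast. After normexp correction these contrasts were 0.40, 0.49 and 0.66 in that order, the first then under 2 times its ± value.

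Both genes of the outer COPII cage that were measured lay above 0. Sec31a had levels of -0.33 in GPHR F/F;Nes and -0.88 in GPHR F/F, a difference of 0.55 ± 0.13, and its 2 probes to curated mRNA gave 0.55 and 0.57, with 0.20 and 0.88 from the other probes. Its partner Sec13, which also serves in the nuclear pore, differed by 0.37 ± 0.20. Sec31b, a paralogue of Sec31a, had 1 probe that was not well above background on either array (1.16 units in GPHR F/F;Nes and 1.39 units in GPHR F/F), so it has no difference. The inner coat genes Sec23a (-0.08 ± 0.16) and Sec23b (0.11 ± 0.15) and the GTPase genes Sar1a (0.16 ± 0.14) and Sar1b (-0.08 ± 0.20) lay near 0. Of the ER exit regulators, Preb, the exchange factor of Sar1, had levels of 1.59 in GPHR F/F;Nes and 1.44 in GPHR F/F (0.14 ± 0.14). Mia3, which helps collagen leave the ER, had levels of 0.78 in GPHR F/F;Nes and 0.58 in GPHR F/F (0.20 ± 0.12).

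The p24 proteins, abundant receptors of both coats, and the lectins, which bind glycoprotein cargo, had medians of 0.18 and 0.06. Among the p24 genes Tmed3 had the largest value, 0.66 ± 0.19, with levels of 0.22 in GPHR F/F;Nes and -0.44 in GPHR F/F, but its 2 probes gave 0.19 and 1.14. The first had 2991 units in GPHR F/F;Nes and 3917 units in GPHR F/F, and the second 13.7 and 9.31 units, so the larger value came from a probe near background. Tmed7 had the lowest difference of the class, -0.18 ± 0.20, with signals of 1224 units in GPHR F/F;Nes and 2077 units in GPHR F/F. Tmed4 (0.27 ± 0.20), Tmed10 (0.19 ± 0.20), Tmed2 (0.18 ± 0.15) and Tmed9 (-0.08 ± 0.20) lay between them.

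Lman1, a mannose-binding receptor that exports coagulation factors, led the lectins. Its levels were 1.44 in GPHR F/F;Nes and 0.92 in GPHR F/F, a difference of 0.52 ± 0.14, with its 2 measured probes at 0.46 and 0.58. Its partner Mcfd2 had levels of 0.82 in GPHR F/F;Nes and 0.79 in GPHR F/F, a difference of 0.03 ± 0.15. Lman2 had levels of 0.20 in GPHR F/F;Nes and 0.11 in GPHR F/F, a difference of 0.09 ± 0.12, and its probes lay on both sides of 0, at -0.15, -0.01 and 0.43, with the brightest at 0.43. Its relative Lman2l had levels of 2.44 and 2.57 in the same order, a difference of -0.13 ± 0.20. Among the 24 genes with several measured probes, 8 had probes on both sides of 0, and Lman2 was the 1 whose probes then spanned over 0.5.

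The proteins of the ER-Golgi intermediate compartment had a median of 0.14 over 6 genes. Yif1a, a YIP family membrane protein, had the largest difference, with levels of 3.20 in GPHR F/F;Nes and 2.69 in GPHR F/F (0.51 ± 0.20). Its family member Yipf5 differed by 0.26 ± 0.20, and the cargo receptor Surf4 by 0.19 ± 0.20. Ergic1 (0.09 ± 0.21), Ergic3 (-0.02 ± 0.14) and Ergic2 (-0.14 ± 0.22) lay within their scanner error. Ergic2 had levels of -2.10 in GPHR F/F;Nes and -1.96 in GPHR F/F.

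Class medians spanned 0.06 for the lectins to 0.65 for the KDEL receptors, while the KDEL receptors alone spanned 2.55. The contrasts between genes of 1 family were chosen after the values were seen, 18 in all. Of these, 12 exceeded 2 times their scanner error, and the rest, such as Sec24a less Sec24b (0.31 ± 0.17), did not. Differences had a standard deviation of 0.57 over all genes measured and 0.47 over the brighter genes. The share of other gene pairs past the same limit was not computed, so the count is no result about these families. Each of the 18 kept its sign in the 12 alternatives. Of the alternatives, 3 only shift each array and cannot move a contrast, so at most 9 bear on it. For the KDEL receptors, with 1 probe each, the settings for dim probes, probe summaries, outlier spots and curated probes left every value unchanged. Quantile normalization, loess and normexp alone bear on those contrasts. The scanner error leaves out the spread between animals, so the contrasts describe the 2 arrays and no more.

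Other genes of the same routes, 39 genes that are no members of the group, were read in the same way. Of 36 measured, 1 was past 2-fold higher, 0 past 2-fold lower and 22 above 0, with a median of 0.08. The shares over all genes measured were 7.93%, 1.37% and 56.9% in that order, and over the brighter genes 3.53%, 1.25% and 44.1%. The gene past 2-fold was Sec16b, a scaffold relative at ER exit sites, at 1.42 ± 0.36. It was dim, with levels of -3.63 in GPHR F/F;Nes and -5.05 in GPHR F/F. Its brighter paralogue Sec16a differed by 0.43 ± 0.12. All 8 further Arf family genes and regulators lay above 0, with a median of 0.11 and the Golgi GTPase Arl1 as the highest (0.41 ± 0.14). Of 8 further cargo receptors measured, 5 lay below 0 (median -0.17), with Cnih3 at -0.77 ± 0.20 and Cnih2 at -0.66 ± 0.14, relatives of ER export receptors that also attend glutamate receptors in neurons. The further YIP family genes had a median of -0.04, with Yipf2 at 0.45 ± 0.20, and the retrograde tether genes one of 0.03, with Use1 at 0.21 ± 0.14.

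**Figure D4:**
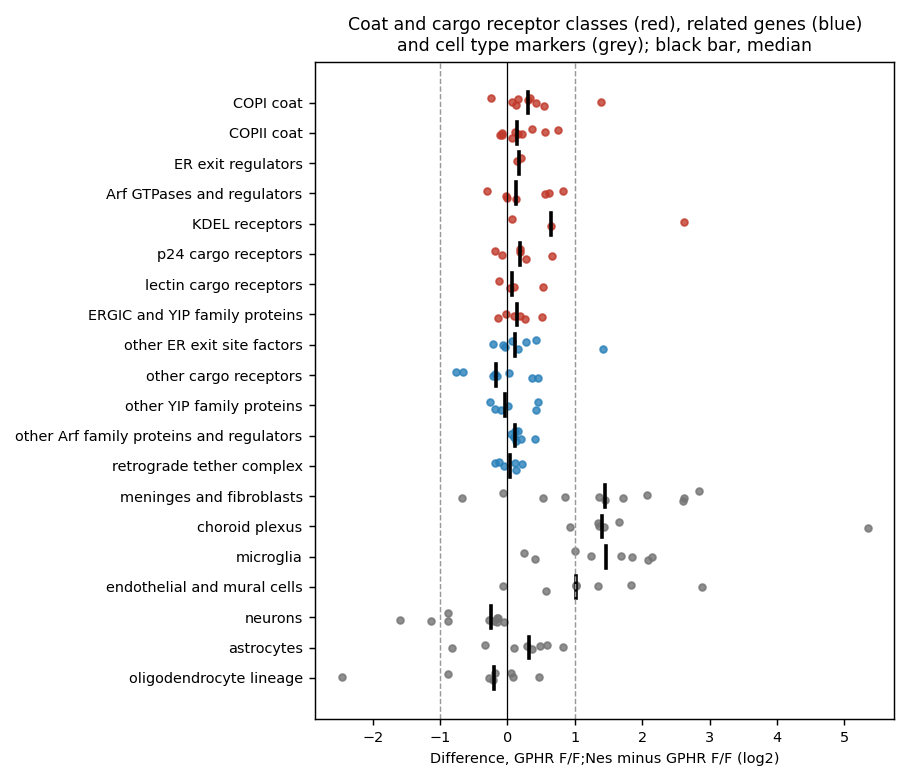
Difference (x axis, log2, GPHR F/F;Nes less GPHR F/F) of each measured gene (points) by list (rows), with the median as a black bar and dashed lines at a 2-fold difference. Coat and cargo receptor classes have medians of 0.06 to 0.65, related genes -0.17 to 0.11, and markers of meninges and fibroblasts, choroid plexus, microglia and vessels 1.02 to 1.46.

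Marker lists of 4 cell types had higher medians on the same arrays than any coat or cargo receptor class. Many of these markers were dim, with levels in GPHR F/F down to -4.99 (F5), and dim genes spread upwards on these arrays. Of all genes 7.93% were 2-fold higher, against 3.53% of the genes at or above the median level. No share matched to the level of the markers was computed, and the markers were not recomputed under the alternatives. For meninges and fibroblasts, 7 of 11 measured markers were at least 2-fold higher and 2 lay below 0 (Pdgfra at -0.67 ± 0.16 and Dcn at -0.07 ± 0.20), with a median of 1.44, a summed linear level of 17.3 in GPHR F/F;Nes and 10.8 in GPHR F/F, and Aldh1a2 detected on the GPHR F/F;Nes array only. Those above 0 ranged from 0.52 ± 0.12 (Fbln1) to 2.84 ± 0.28 (Slc6a13). The collagen genes among them stood at 1.44 ± 0.08 (Col1a1), 2.61 ± 0.21 (Col1a2) and 2.62 ± 0.21 (Col3a1). The collagen chaperone Serpinh1, a soluble ER protein with a retrieval tail, stood at 1.56 ± 0.20. Serpinh1 is on none of the marker lists and was picked singly, and other proteins with such a tail were not read here. For choroid plexus 5 of 6 measured markers were at least 2-fold higher (median 1.40, summed level 6.05 in GPHR F/F;Nes and 0.854 in GPHR F/F, Kl below background on both arrays). For microglia 5 of 8 were (median 1.46, summed level 3.19 and 1.79 in that order, P2ry12 below background on both). For endothelial and mural cells 5 of 7 were (median 1.02, summed level 38.8 and 12.6, with Cldn5, Cdh5 and Rgs5 below background on both and Pecam1 at -0.07 ± 0.23). Single bright probes carried part of these sums. Without Tagln the vessel sum was 8.39 in GPHR F/F;Nes and 3.97 in GPHR F/F, without Ttr the choroid plexus sum was 1.92 and 0.753 in that order, and without Dcn the fibroblast sum was 11.1 and 4.32. A sum adds probes of unequal response, so it can be set only against the same sum on the other array. All 10 neuronal markers lay below 0 (median -0.24, summed level 68.6 and 88.6), from -1.60 ± 0.14 (Nefm) to -0.05 ± 0.14 (Stmn2). The share above 0 was 56.9% over all genes measured and 44.1% over the brighter genes. Astrocyte markers had a median of 0.32 and oligodendrocyte lineage markers one of -0.21. The part of these cell types in the differences of Kdelr3, Copz2 and the other genes was not tested.

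**Figure D5:**
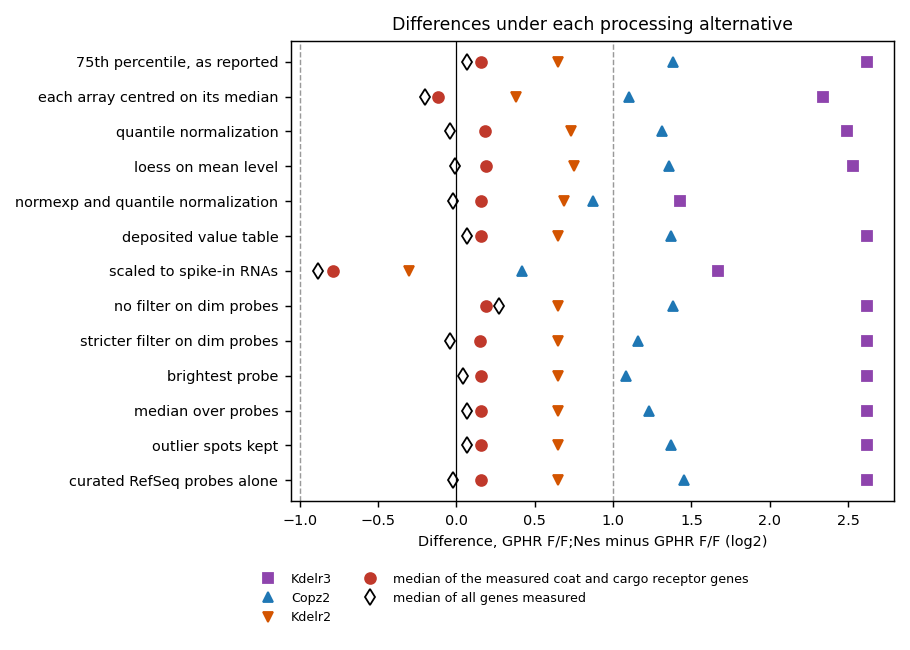
Difference (x axis, log2, GPHR F/F;Nes less GPHR F/F) of Kdelr3, Copz2 and Kdelr2, and medians of the coat and cargo receptor genes and of all genes, under the reported setting and each of 12 alternatives (rows). Kdelr3 lies between 1.43 and 2.62 in the alternatives, and Copz2 between 0.42 and 1.45.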

How the data were processed

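Per the labels' protocols, TRIzol extracts were Cy3-labelled with a low-input Agilent kit. The submitters' processing notes name Agilent Feature Extraction 11.5.1.1. The deposited arrays hold linear intensity, which per the file headers was already corrected for background and for spatial trends. The deposited flags, other values of 0 or 1, mark spots well above background, saturated (0 spots) or outliers. The deposited value table is on the log2 scale: each column was the log2 processed signal shifted by 1 constant (-7.43 for GPHR F/F;Nes and -8.01 for GPHR F/F) within 0.001 for 99.9% of probes, with medians of -2.92 and -3.19, and the constants lie close to minus the log2 75th percentile of each array (-7.44 and -8.02), so this table repeats the scaling used here and is no independent alternative. Both arrays shared 1 slide and 1 scan.

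Outlier spots (96) were left out, spots of a probe and then probes of a gene were averaged as log2 values, and every array's 75th percentile over 56603 probes was subtracted. Probes well above background on both arrays (36717) counted as measured (of all probes, the GPHR F/F;Nes array had 69.2% and the GPHR F/F array 67.0% above background). Members were matched by the array's gene name, and other genes were renamed through RefSeq accessions (32989 probes matched). All 93 probes of the members were placed on mm9 per the file headers, and 86 were measured. A gene with signal on 1 array alone got a bound against the lowest signal well above background. Promoters were searched for 5 motifs on both strands. With 1 array per group, no test was made. Alternatives were centring on the median, quantile normalization, loess (span 0.3), normexp (offset 50), spike-in scaling, the deposited value table, other filters on dim probes, other probe summaries, outlier spots kept and curated RefSeq probes alone. Named in full were KDEL receptors, the largest difference of each class in either direction, genes past 2-fold, genes whose probes opposed, and genes without signal. The members and lists were chosen with earlier results of these data known. Python 3.11.15, numpy 2.4.6, pandas 2.3.3, R 4.3.3 and limma 3.58.1 were used, and the calculation was tested on simulated data.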

Additional observations from a re-analysis of the deposited data

How the results depend on the processing

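Recomputed under 12 alternatives, Kdelr3 and Copz2 lay above 0 in every one. Kdelr3 rested on 1 probe, so the settings for dim probes, probe summaries, outlier spots and curated probes left it at 2.62. The deposited value table did so too. Of the 47 genes, 16 lay above 0 and 5 below 0 in every setting other than spike-in scaling. The same counts over all genes were not computed, so these are no result about the group. The alternative that used probes to curated RefSeq mRNAs alone was chosen after seeing the data. With each array centred on its median, the median over the genes was -0.12, and the class medians were 0.03 (COPI coat), -0.14 (COPII coat), -0.10 (ER exit regulators), -0.15 (Arf GTPases and regulators), 0.38 (KDEL receptors), -0.09 (p24), -0.22 (lectins) and -0.13 (ERGIC and YIP family), 16 genes lay above 0, and 4.48% of all genes were 2-fold higher and 3.39% lower. Scaled to spike-in RNAs, the same medians were -0.79, -0.65, -0.82, -0.78, -0.82, -0.30, -0.77, -0.89 and -0.81, 2 genes lay above 0, 1 was 2-fold higher and 9 lower, with 0.771% of all genes higher and 38.3% lower. Both settings subtract another constant from each array, which by construction moves every gene by the same amount.

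After normexp correction 1 gene was 2-fold higher (Kdelr3, at 1.43), with 1.37% of all genes higher and 0.373% lower. Quantile normalization gave 5.11% higher and 2.39% lower, and loess 2.11% lower. With no filter on dim probes these shares were 14.9% and 2.11%, and a stricter filter gave 3.95% higher. Reading the brightest probe alone put the lectin median at 0.21. At a 1.5-fold threshold 7 of the 47 genes were higher and 0 lower, against 18.1% and 5.73% of all genes. For shifts not set by construction, the cause was not tested. No paired analysis was possible because each group had 1 sample. With 23 of the 47 genes resting on 1 probe and 1 array per group, the number of arrays limits the precision of every value.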
